A study of Mus musculus with 6 samples.

Results

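MicroRNA genes on the mouse autosomes were examined for 2 acyl marks of histone H3 lysine 9, crotonylation (H3K9cr) and acetylation (H3K9ac). The set holds every gene that the RefSeq table of GRCm38 calls a miRNA on an autosome, 1136 of 49997 annotated genes. The records span 39 to 147 bp (median 80 bp), so each is about the length of a hairpin. Of the 1136 genes, 780 lay inside the span of a protein-coding gene and 356 lay outside any such span. Genes less than 10 kb apart were joined, which gave 88 clusters of 2 or more genes with 329 genes among them and 807 single genes. The cells were undifferentiated P19, an established mouse embryonal carcinoma line, kept in proliferation medium, and the labels name no treatment. Native chromatin was immunoprecipitated with 1 antibody per mark, and each mark has 2 libraries that the study calls biological replicates. The authors deposited a peak list for each of the 4 libraries, and 2 input libraries were not analysed here. All 4 libraries share the line and the culture, so the design compares marks and not conditions, and whether the replicates were separate cultures is not given in the sources used here.

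MicroRNAs are short RNAs that guide Argonaute proteins to messenger RNAs, mostly through the seed, a stretch near the 5′ end of the mature RNA that pairs with its targets. They are cut by Drosha and Dicer from hairpins in longer transcripts, and many hairpins sit in introns of protein-coding genes or share a single transcript with their neighbours. The start of the transcript can therefore lie far from the hairpin. H3K9ac and H3K9cr are found mainly around active transcription starts.

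The 4 lists held 28360 and 28345 peaks for H3K9cr and 26096 and 27474 for H3K9ac, with a smallest −log10 q between 2.02 and 2.06 in each. The sources used here do not give read depth, and a gene without a peak is a gene below the authors' threshold and not a measured absence. Cell type markers were counted by a peak within 1 kb of the whole gene record. Of the markers of undifferentiated embryonal carcinoma cells 10 of 10, Pou5f1, Sox2 and Nanog among them, had such a peak in all 4 libraries. So did 5 of 5 neural, 5 of 5 fibroblast, 2 of 5 muscle and heart, 2 of 5 endoderm and liver and 0 of 5 blood markers. A peak at a gene is thus no sign by itself that the gene marks these cells. The share of all protein-coding genes by distance to the whole record is not given here. At an annotated start, 64.1% of protein-coding genes had a peak within 1 kb in all 4 libraries.

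The mature sequences that matter most for the clusters described here are printed 5′ to 3′ from RefSeq (GRCm38.p6), with the seed, bases 2 to 8, in capitals. The first set shows a seed shared by a pair of separate clusters that carried peaks over most or all of their hairpins, and the closely related seed of miR-290a.
mmu-miR-290a-3p: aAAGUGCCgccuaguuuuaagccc
mmu-miR-291a-3p: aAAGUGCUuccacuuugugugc
mmu-miR-294-3p: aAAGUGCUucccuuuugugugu
mmu-miR-295-3p: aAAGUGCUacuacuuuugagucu
mmu-miR-302b-3p: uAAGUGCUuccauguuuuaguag

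The second set carries the miR-17 seed, whose letters are those of the first shifted by 1 base, and comes from a cluster with peaks just upstream and from a cluster with peaks only farther away.
mmu-miR-17-5p: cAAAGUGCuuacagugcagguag
mmu-miR-20a-5p: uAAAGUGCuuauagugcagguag
mmu-miR-106b-5p: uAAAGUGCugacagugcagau
mmu-miR-93-5p: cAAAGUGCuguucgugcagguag

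The third set holds let-7 members that differ in the distance to a peak, then miR-9, which had peaks at each of its genes, and miR-206, a muscle microRNA far from any peak.
mmu-let-7e-5p: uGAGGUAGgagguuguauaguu
mmu-let-7i-5p: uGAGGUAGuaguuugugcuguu
mmu-let-7g-5p: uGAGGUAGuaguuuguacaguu
mmu-miR-9-5p: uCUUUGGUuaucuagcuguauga
mmu-miR-206-3p: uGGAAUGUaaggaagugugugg

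Most microRNA genes lay away from both marks, and a minority lay right next to them. A peak lay within 1 kb of 250 and 243 genes in the H3K9cr libraries and of 228 and 245 in the H3K9ac libraries, and 224 of 1136 (19.7%, Wilson 95% interval 17.5 to 22.1%) had one in all 4. By comparison, 3.13% of autosomal positions and 64.1% of protein-coding genes, taken at an annotated start, were within 1 kb of a peak in all 4 libraries. The share of microRNA genes stood between these backgrounds in each library. The peak overlapped the hairpin itself in all 4 libraries at 153 genes (13.5%). At 874 genes no library had a peak within 1 kb, and at 38 some libraries did and others did not.

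Within 10 kb the counts were 542, 546, 535 and 536 genes in H3K9cr replicates 1 and 2 and H3K9ac replicates 1 and 2. A peak in all 4 was present for 515 genes (45.3%, interval 42.5 to 48.2%), beside 15.2% of autosomal positions and 69.4% of protein-coding starts. The median distance from a microRNA gene to the nearest peak was 10937.5 to 11575.5 bp over the libraries.

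The test could not separate the marks by these counts. Within 1 kb the mean was 246.5 ± 4.95 genes for H3K9cr and 236.5 ± 12 for H3K9ac (SD, n = 2 libraries each, exact two-sided permutation p = 0.667). Within 10 kb it was 544 ± 2.83 and 535.5 ± 0.707 (exact permutation p = 0.333), and the 2 libraries of a mark did not overlap those of the other. With 2 libraries against 2 the smallest p this test can give is 0.333, so the design cannot reach 0.05. The difference between the means, 10 genes at 1 kb, was −0.5 with distance taken to the summit. It was 6.5 without H3K9cr replicate 1, 13.5 without H3K9cr replicate 2, 1.5 without H3K9ac replicate 1 and 18.5 without H3K9ac replicate 2. At 10 kb it was 8.5 genes, and −0.5 with equally long lists of the strongest peaks.

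**Figure D1:**
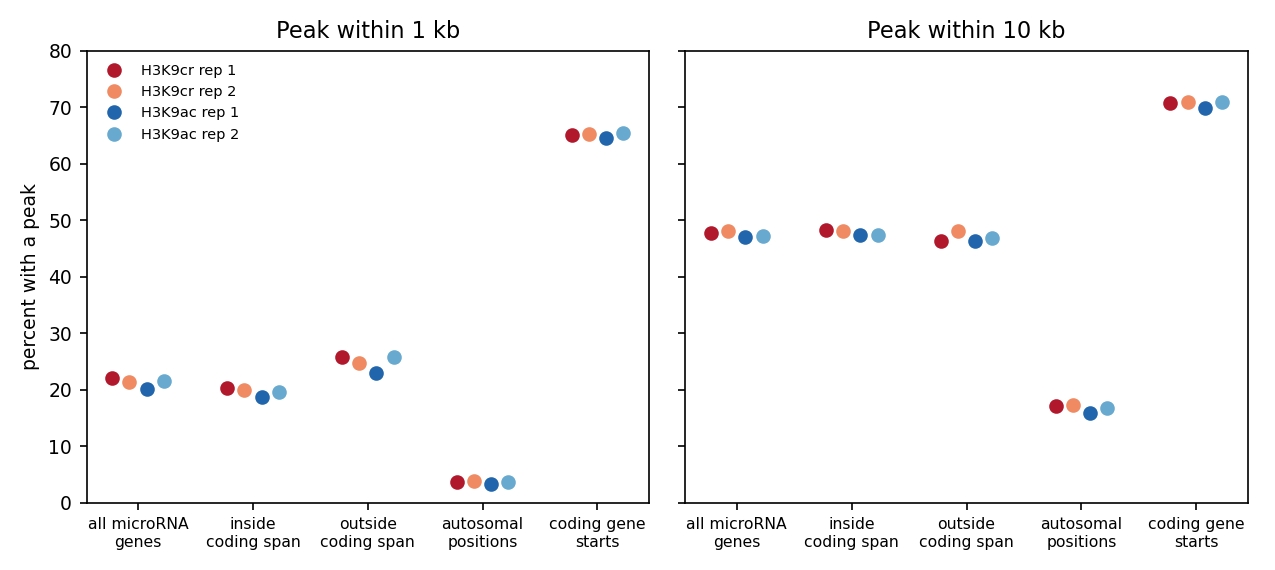
The percent of microRNA genes, of those inside and outside protein-coding spans, of autosomal positions and of protein-coding starts with a peak within 1 kb (left) and 10 kb (right) is plotted, with 1 point for each library. The 4 libraries lie close together in every group, and microRNA genes sit between positions, at 3.34 to 3.77% for 1 kb, and protein-coding starts, at 64.6 to 65.4%.

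By count, hairpins outside protein-coding genes were somewhat more often next to a peak at 1 kb and about as often at 10 kb. Within 1 kb, 144 of 780 genes inside spans (18.5%) and 80 of 356 outside (22.5%) had a peak in all 4 libraries. The difference, inside minus outside, was −5.59 and −4.85 percentage points in the H3K9cr libraries and −4.32 and −6.23 in the H3K9ac libraries. It was below 0 in 4 of 4 libraries, with a mean of −5.24 (SD 0.837, exact two-sided sign-flip permutation p = 0.12, the smallest that 4 libraries allow). The libraries count the same genes in the same cells, so the SD and p describe agreement between peak lists and not spread between genes. Within 10 kb the shares were 45.1% and 45.8% in all 4 libraries, and the mean difference was 0.878 percentage points (SD 0.856, exact p = 0.12).

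A single locus holds 72 of the genes inside spans, the repeated hairpins of the miR-466, miR-467 and miR-669 families in Sfmbt2. Without that cluster, left out after the data were seen, the mean differences were −3.25 percentage points at 1 kb and 5.74 at 10 kb. The value at 10 kb was above 0 in 4 of 4 libraries with and without it. Without the Dlk1 to Dio3 clusters as well, also left out after the data were seen, the mean differences were −5.90 and 3.63.

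The 2 hairpin clusters best known from early embryonic cells lay under or next to peaks of both marks. In the miR-290 to miR-295 cluster on chr7:3218626-3220841, 9 of 9 genes had a peak within 1 kb in all 4 libraries. Its 7 listed hairpins nearest the 5′ end, antisense records Mir290b and Mir292b included, were overlapped by a single peak per library. That peak had a fold enrichment over control, a value given per peak by the authors' peak caller as are all folds here, of 106 and 159 in the H3K9cr libraries and 105 and 174 in the H3K9ac libraries. The peaks of replicate 2 were higher than those of replicate 1 for both marks, so the replicates did not separate by mark. By fold the peak ranked 1788, 390, 971 and 450 in the lists, in the same order of libraries.

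The miR-290 peak was 2592 to 3257 bp long, and its summit lay 479 to 543 bp before Mir290a, upstream on the strand of the cluster. Mir294 started 22 to 284 bp beyond its end and Mir295, the last hairpin, 154 to 416 bp beyond. The marks thus covered the first part of the cluster and stopped short of its 3′ end in each library. A pair of smaller peaks lay between 4218 and 6997 bp upstream, with folds of 5.62 to 12.7. The protein-coding span around 7 of the 9 genes is Nlrp12, an inflammasome-family gene on the opposite strand to miR-290.

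In the miR-302 and miR-367 cluster (chr3:127545228-127545807), 5 of 5 hairpins were overlapped in all 4 libraries. This peak was 1744 and 1800 bp long for H3K9cr and 1563 and 1649 bp for H3K9ac, and its fold was 26, 21.2, 19.4 and 18.3, with both H3K9cr values above both H3K9ac values. It was a mid-rank peak, at the 45.8th to 56.9th percentile of its list, far lower in rank than the miR-290 peak. Its summit lay 5 to 35 bp before the first hairpin, Mir302b. The cluster lies in Larp7, which codes for a protein that binds the 7SK RNA and is read from the other strand. A separate peak at the Larp7 start, with its summit 8530 to 8544 bp from Mir302b, had folds of 106, 86.3, 89.1 and 98.1.

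The Larp7 start window is printed, 250 bases before to 50 after the start on the minus strand (RefSeq GRCm38.p6, chr3:127553300-127553599), because it separates the host start from the hairpin peak, and it lay whole within a peak in all 4 libraries. Capitals mark CCAAT or its reverse complement ATTGG, a motif known from many promoters.
Larp7: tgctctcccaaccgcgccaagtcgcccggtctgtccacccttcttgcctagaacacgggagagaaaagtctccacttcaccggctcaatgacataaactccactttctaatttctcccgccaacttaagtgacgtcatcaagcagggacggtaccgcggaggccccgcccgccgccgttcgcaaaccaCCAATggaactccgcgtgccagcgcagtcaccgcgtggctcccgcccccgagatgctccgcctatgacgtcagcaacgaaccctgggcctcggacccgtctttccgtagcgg

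The miR-17 to miR-92 cluster, which promotes cell growth and is a target of Myc, had its peak upstream of the hairpins. On chr14:115043671-115044506, 6 hairpins of 836 bp in all followed a peak of 3615 to 3736 bp whose end lay 252, 201, 253 and 164 bp before Mir17 in H3K9cr 1, H3K9cr 2, H3K9ac 1 and H3K9ac 2. Its fold was 41.0, 47.1, 33.3 and 49.1, and its summit lay 898 to 1045 bp before Mir17. No hairpin of the cluster was overlapped in any library.

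The same peak shows how the 1 kb limit works. Mir17, Mir18, Mir19a, Mir20a and Mir19b-1 were within 1 kb in all 4 libraries. Mir92-1, the last hairpin, lay 1008, 957, 1009 and 920 bp from the same peak and passed in only 2 of 4 libraries.

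The related miR-106b to miR-25 cluster sits in Mcm7, which codes for a subunit of the replicative helicase. None of its 3 hairpins had a peak within 1 kb, and all 3 had one within 10 kb in each library. The nearest peaks lay 3096 to 3199 bp downstream of Mir25, on the strand of Mcm7. The nearer annotated start of Mcm7 lay 5448 bp before Mir106b, and the peak over it had folds of 127, 149, 111 and 162.

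The table gives 2 Mcm7 start windows, and the one nearer the hairpins is printed because they share the strand of Mcm7 (minus strand, chr5:138171217-138171516, RefSeq GRCm38.p6, same capitals as for Larp7). Both windows lay whole within a peak in all 4 libraries.
Mcm7: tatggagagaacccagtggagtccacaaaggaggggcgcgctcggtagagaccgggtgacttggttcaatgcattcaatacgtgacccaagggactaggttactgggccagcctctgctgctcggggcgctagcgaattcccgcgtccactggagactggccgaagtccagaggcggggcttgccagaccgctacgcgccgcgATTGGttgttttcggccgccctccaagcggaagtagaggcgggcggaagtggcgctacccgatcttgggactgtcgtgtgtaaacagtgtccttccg

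CCAAT was searched on both strands, with no overlap between matches, and 37.4% of the 32851 start windows in the table hold it. The printed Mcm7 window and the Larp7 window each held 1 match, and the other Mcm7 window, farther upstream, held 3. The E-box CACGTG, the letters GGCGGGAA and TATAAA were absent from these 3 windows and present in 7.15%, 2.19% and 13.6% of all windows. The printed Mcm7 and Larp7 windows held 26 and 30 CpG dinucleotides, beside a median of 7 over all windows. A match is a run of letters and not a measured site.

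**Figure D2:**
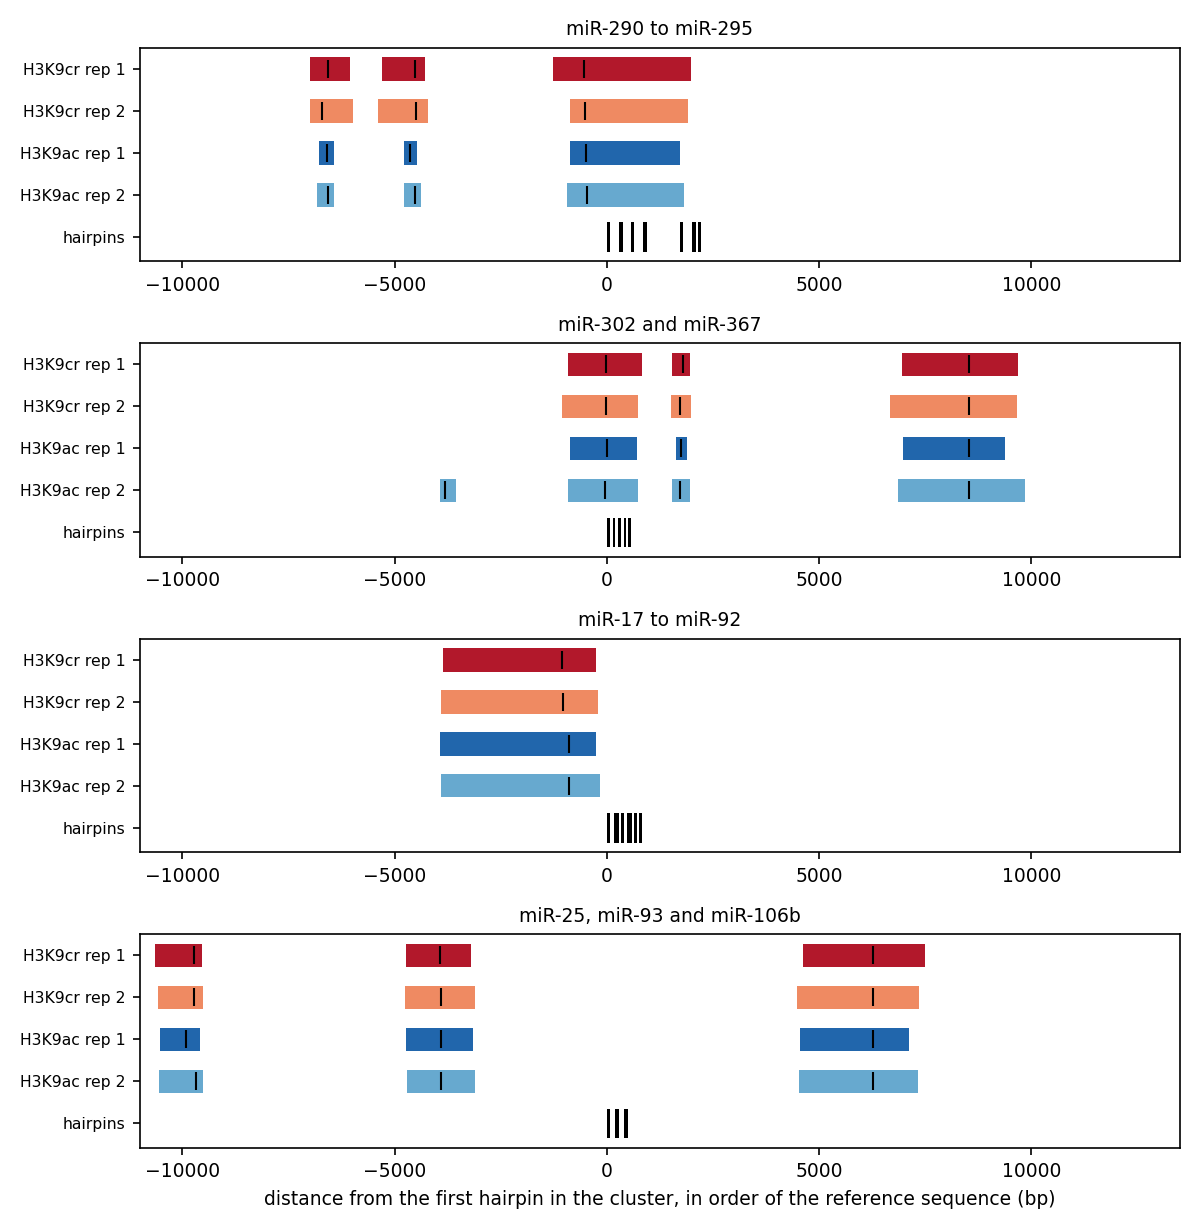
Maps of 4 clusters are drawn by distance in bp from the first hairpin in the order of the reference, with hairpins in black, peaks of each library as coloured bars and the peak summit as a black tick. In all 4 libraries a peak covers 7 of the 9 miR-290 hairpin records and 5 of 5 miR-302 and miR-367 hairpins, the miR-17 peak ends 164 to 253 bp before the first hairpin, and the miR-106b to miR-25 hairpins lie between peaks.

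The peaks close to hairpins had a higher median fold than their lists, with a wide range that reached down to 3.72 to 4.24 in the 4 libraries. Counting the strongest peak of each gene once, the distinct peaks within 1 kb numbered 205 and 201 for H3K9cr and 189 and 201 for H3K9ac. Their median fold was 48.5, 50.8, 40.7 and 50.4, beside 19.7, 18.7, 18.6 and 21.9 over whole lists. Where a gene had several peaks within 1 kb the one with the highest fold was taken, which can raise these medians. In each list the median peak next to a microRNA gene stood at the 70.4th to 74.4th percentile by fold. These peaks were also longer, with medians of 1938 to 2203 bp beside 1185 to 1246 bp.

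Across 186 distinct peaks near microRNA genes the folds of any 2 libraries had a Spearman correlation of 0.899 to 0.972, a description with no p because all libraries share the cells. The closest pairs were H3K9cr 1 with H3K9ac 1 (0.972) and H3K9cr 2 with H3K9ac 2 (0.965). Same-numbered libraries of different marks were thus closer in fold than the replicates of either mark, at 0.899 and 0.929. Over all shared regions the deviations of same-numbered libraries correlated at 0.616 for fold and 0.0120 for summit pileup, and the part of this in the folds printed here was not tested.

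The highest peaks near hairpins inside genes overlapped or lay close to hairpins in hosts of varied function. Mir5121, in the ribosomal protein gene Rpl13a, lay under a peak of 255 and 259 fold in H3K9cr and 176 and 293 in H3K9ac, which ranked 7, 6, 50 and 8. Mir150, a lymphocyte microRNA in the same cluster, lay 1052 to 1124 bp from a peak. High by the lowest of the 4 folds were also Mir1894 in Ppp1r10, a phosphatase subunit gene (lowest fold 166), and Mir5133 in Glce, a heparan sulfate enzyme gene (165). Mir677 in Atp5b, a subunit of ATP synthase (126), and Mir7666 in Micu3, a calcium uptake regulator (122), were lower, with Mir6975 in Ddx39b, an RNA helicase gene, between them. Mir5136 in Lbhd1 (119), Mir3077 in Sap18 (118) and Mir3081 in Boc (110) came after these.

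Outside protein-coding spans the leading genes were Mir688 (lowest fold 129), Mir92b (122), Mir130a (118) and Mir484 (105). Mir92b has the seed of the miR-25 and miR-92 family, and its peak overlapped it in all 4 libraries with folds of 122, 138, 137 and 159. After these came Gm51271 (93.8), Mir3069 (93.2), Mir760 (92.8), Mir1949 (91.8), Mir3569 (91.7) and Mir8112 (88.7).

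Not all of these peaks were at annotated starts. Of 217 genes with a 1 kb peak in all 4 libraries on chromosomes that the start table covers, the strongest peak covered an annotated start in all 4 at 111 (51.2%) and in none at 97 (44.7%). Over all peaks, which were not chosen by strength, 38.5 to 40.1% covered such a start. Inside spans 84 of 139 genes were at a start and 49 were not. Outside them the counts were 27 and 48 of 78, and Mir375 was among those with no annotated start under the peak.

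The nearest peak was more often before the hairpin than after it. Among 208 genes with a strand and a 1 kb peak in all 4 libraries, the nearest peak covered the gene at 140, lay upstream at 39 and downstream at 14, and 15 differed between libraries. Among 476 such genes at 10 kb it lay upstream at 200 and downstream at 107. No test was made, since genes of a cluster share peaks.

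Hairpins within genes were also read at the start of the host. Of the 780 genes inside spans, 218 lacked a host start or a strand and were left out, the 72 in Sfmbt2 among them. For 482 genes on the strand of a host with an annotated start, every annotated start of that host was checked. All 4 libraries had a peak within 1 kb of a start of the host for 439 genes (91.1%), or 415 of 456 hosts (91.0%). Distances were taken to the nearest start, which need not be the start with the peak. Where several hosts fitted, the one with peaks in the most libraries was kept, which can raise these shares. Over the 16456 protein-coding genes with an annotated start the share was 64.1%, and the difference was not tested. Of the 197 genes at most 10 kb from the nearest host start, 78 had a peak within 1 kb and 179 (90.9%) within 10 kb. Of the 285 genes farther away, 15 (5.26%) and 74 (26%) did, although 257 of them (90.2%) had peaks at a host start. So 172 far hairpins had both marks at a host start and none within 10 kb of themselves.

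Named members of that kind are the miR-103 and miR-107 genes, which lie in the pantothenate kinase genes Pank3, Pank2 and Pank1. Mir103-1, Mir103-2 and Mir107 lay 12901, 25213 and 57144 bp from the nearest host start. Their nearest peaks were 10910 to 11278, 23928 to 24064 and 56626 to 56724 bp away. Peaks lay at a start of all 3 hosts in each library. Mir30c-1 and Mir30e lay 46091 and 43016 bp from the nearest start of Nfyc, with no peak within 10 kb. Mir128-1 in R3hdm1, a neural microRNA, lay 60374 bp from the nearest start of its host, which had peaks at a start. Its nearest peak was 40994 to 41158 bp away. The copy Mir128-2 in Arpp21 lay 67238 bp from the nearest host start. It was overlapped by a peak in all 4 libraries, with folds of 14.0, 10.8, 12.9 and 12.8.

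Hosts on the opposite strand were counted apart. Their starts had peaks within 1 kb in all 4 libraries for 60 of 80 genes (75%), beside 64.1% of protein-coding genes with an annotated start. In 38 same-strand hosts no library had a peak at the start, among them the heart myosin gene Myh6 with Mir208a, its neighbour Myh7 with Mir208b, Myh7b with Mir499 and the melanocyte gene Trpm1 with Mir211. Mir208a had a peak within 10 kb in 1 library, H3K9cr 1, at 9107 bp and 3.77 fold, and Mir208b and Mir211 had none in any library.

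**Figure D3:**
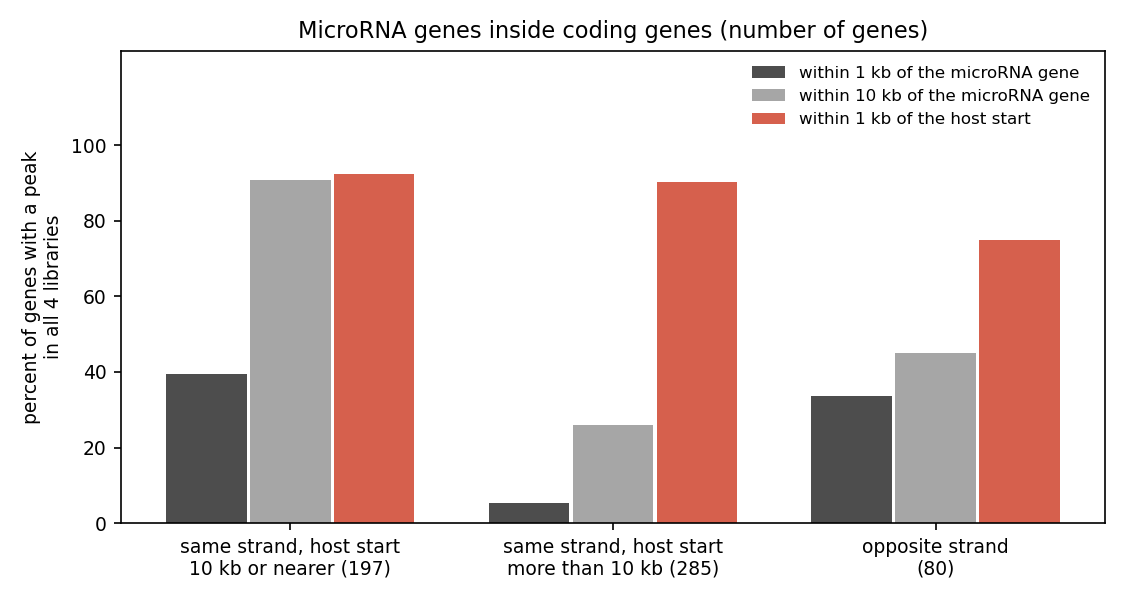
Bars give the percent of microRNA genes inside protein-coding genes with a peak in all 4 libraries. The peak lies within 1 kb of the microRNA gene, within 10 kb of it or within 1 kb of any host start. The 197, 285 and 80 genes are grouped by strand and by distance to the nearest host start. A host start has peaks for about the same share of near and far same-strand genes (92.4% and 90.2%), while the share with a peak within 10 kb of the hairpin is 90.9% and 26%.

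Counted as clusters, the shares were close to those over genes. A peak within 1 kb of a member in all 4 libraries was found at 184 of 895 clusters and single genes (20.6%), and within 10 kb at 433 (48.4%). Of the 6 clusters with 5 or more genes, miR-290, miR-302 and miR-17 had such peaks within 1 kb and the other 3 did not. Those 3 lie at imprinted loci.

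The largest, 72 hairpins in Sfmbt2 (chr2:10466663-10518279), had its nearest peak 90872, 90768, 90829 and 90773 bp away in the 4 libraries. The only peak in Sfmbt2 was at its start, with folds of 28.5, 26.4, 32.5 and 33.7. The other 2 belong to the Dlk1 to Dio3 region on chr12, whose noncoding RNAs are read from the maternal copy. The 39 genes from Mir379 to Mir3072 had their nearest peak 1567, 1347, 1561 and 1557 bp away, of 12.3, 14.7, 13.9 and 16.3 fold, and 7 of them lay within 10 kb of a peak in all libraries. The 16 genes from Mir770 to Mir136, 15 of them in the span of Rtl1, had their nearest peak 17151, 12722, 16989 and 17166 bp away. Over 51 listed genes of the region 0 had a 1 kb peak in all 4 libraries and 8 a 10 kb peak. The shares of all microRNA genes were 19.7% and 45.3%. Mir341 had a 1 kb peak in 3 libraries.

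The let-7 family, which restrains growth and whose maturation Lin28 blocks in undifferentiated cells, was mixed. Of 10 genes on autosomes 2 had a peak within 1 kb in all 4 libraries and 6 within 10 kb. These shares, 20% and 60%, stand beside 19.7% and 45.3% of all microRNA genes, and the difference was not tested. Mirlet7i was overlapped by a peak of 67.3, 121, 59.2 and 127 fold and Mirlet7e, in a cluster with Mir99b and Mir125a, by a peak of 49.8, 55.2, 43.4 and 50.4 fold. As at miR-290, replicate 2 was higher for both marks at Mirlet7i. Mirlet7g in Wdr82 lay 5336 to 5875 bp from a peak, and Mirlet7a-1, Mirlet7f-1 and Mirlet7d 6136 to 8479 bp from a peak of 86.0 to 118 fold. Mirlet7c-1, Mirlet7c-2, Mirlet7b and Mirlet7a-2 lay 27102 to 44245 bp from any peak.

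Neural microRNA genes stood at 13 of 24 with a 1 kb peak in all 4 libraries and 17 of 24 at 10 kb, beside 19.7% and 45.3% of all microRNA genes. Each of the 3 genes of miR-9, which acts in neural progenitors, was overlapped in all 4 libraries. Their folds were modest, at 10.7, 17.8, 11.4 and 20.3 for Mir9-1, 12.7, 10.9, 13.6 and 13.0 for Mir9-2 and 17.5, 10.3, 11.6 and 13.5 for Mir9-3. The 3 genes of miR-124, abundant in neurons, each had a 1 kb peak, with Mir124a-1 and Mir124a-3 overlapped in every library and Mir124a-2 at 0, 1, 185 and 13 bp.

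Among other neural genes Mir132 and Mir212 shared a peak of 12.3 to 23.0 fold, and Mir219a-1 one of 46.2 to 73.1 fold. Mir137 had a weak peak, at 8.65, 7.12, 4.94 and 12.1 fold. Mir218-1 in Slit2 and Mir218-2 in Slit3, which code for axon guidance ligands, lay 148024 to 151947 bp from any peak. Both Mir218 copies were thus far from peaks, while the Mir128 copies described above differed. Mir129-2 had an overlapping peak of 12.1 to 30.2 fold. Its copy Mir129-1 lay 851 to 1041 bp from a peak, within 1 kb in H3K9cr and just beyond it in H3K9ac.

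Listed microRNA genes of muscle, heart, blood and liver seldom had a peak within 1 kb, but the lists are short. Over all microRNA genes the shares in all 4 libraries were 19.7% at 1 kb and 45.3% at 10 kb, and the differences were not tested. None of 9 muscle and heart genes had a 1 kb peak in all 4 libraries, and Mir206 and Mir133b lay 135800 to 139872 bp from the nearest. None of 7 blood genes had one, although 5 of 7 had a peak within 10 kb. Mir142, a marker of blood cells, lay 2946 to 3120 bp from a peak of 32.9 to 45.9 fold. Of 9 liver, gut and pancreas genes only Mir375, known from islet cells, had a 1 kb peak, with folds of 11, 10.6, 12.3 and 10.7, and Mir122, the main liver microRNA, lay 22950 to 23661 bp away.

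The epithelial list had 3 of 10 genes within 1 kb and 6 of 10 within 10 kb. The shares of all microRNA genes, 19.7% and 45.3%, also stand beside the Hox counts below, and no difference was tested. Mir200c and Mir141 lay 314 to 808 bp from a weak peak of 4.05 to 5.18 fold, while Mir200a, Mir200b and Mir429 had no peak within 10 kb. Mir183, Mir96 and Mir182 lay 1017 to 1735 bp from a peak, outside 1 kb in each library. In the Hox clusters 1 of 6 genes, Mir615 in Hoxc5, had a 1 kb peak in all 4 libraries and 6 of 6 a 10 kb peak. Mir34b and Mir34c, targets of p53, were overlapped by a peak of 71.3 to 100.7 fold, and Mir34a lay 4065 to 7378 bp from one.

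Of 39 broadly expressed genes 8 had a peak within 1 kb in all 4 libraries and 17 within 10 kb, about the shares of all microRNA genes. Mir484 (105 to 153 fold), Mir423 (72.9 to 132), Mir191 (66.0 to 91.4), Mir148a (64.5 to 92.2), Mir320 (39.5 to 58.9) and Mir152 (40.5 to 59.6) were overlapped in every library. Mir22 lay at 0 to 134 bp, with 52.1 to 118 fold, and a stronger peak of 167 to 269 fold lay 2403 to 2444 bp upstream. The miR-29 and miR-30 genes, 10 in all, lay 14470 to 80250 bp from the nearest peak. In the vessel and stroma list 2 of 8 genes, Mir145a and Mir199b, had a 1 kb peak in all 4 libraries. The share of all microRNA genes was 19.7%.

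**Figure D4:**
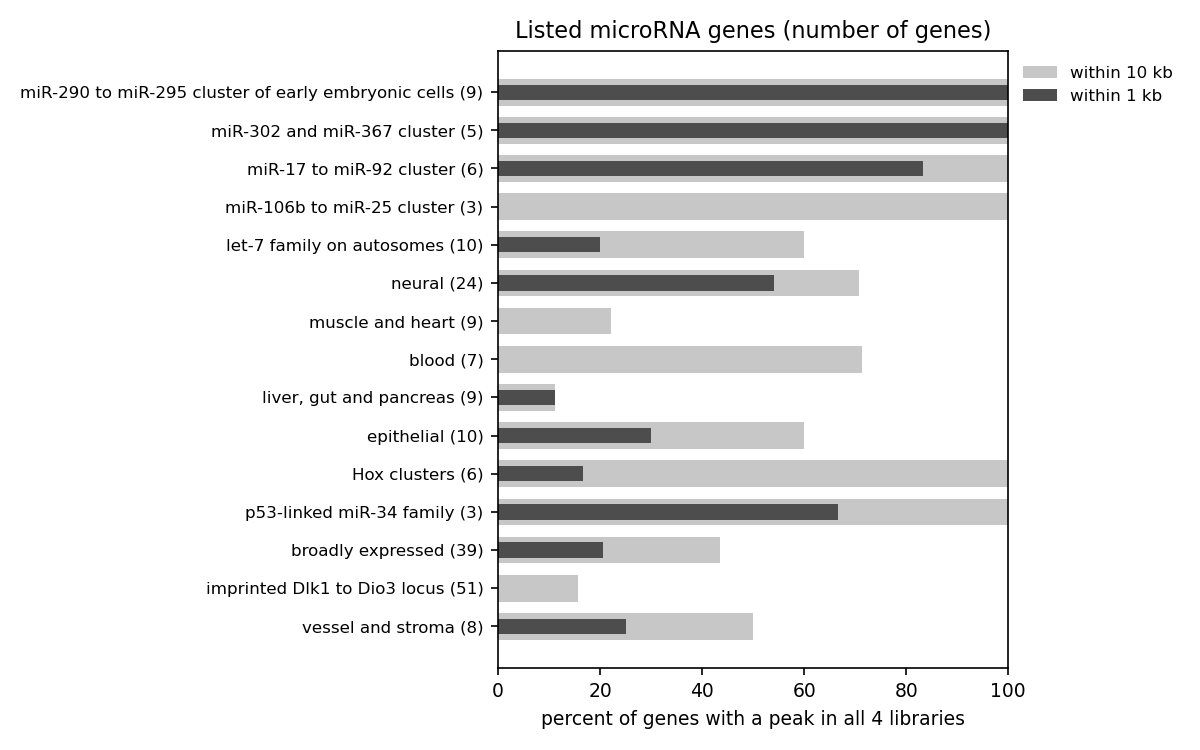
Bars give, for each list of microRNA genes with its number of genes, the percent with a peak in all 4 libraries within 10 kb (light) and within 1 kb (dark). The miR-290 and miR-302 clusters reach 100% at 1 kb, the neural list 54.2%, and the muscle and heart, blood and Dlk1 to Dio3 lists 0%, beside 19.7% of all microRNA genes.

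**Figure D5:**
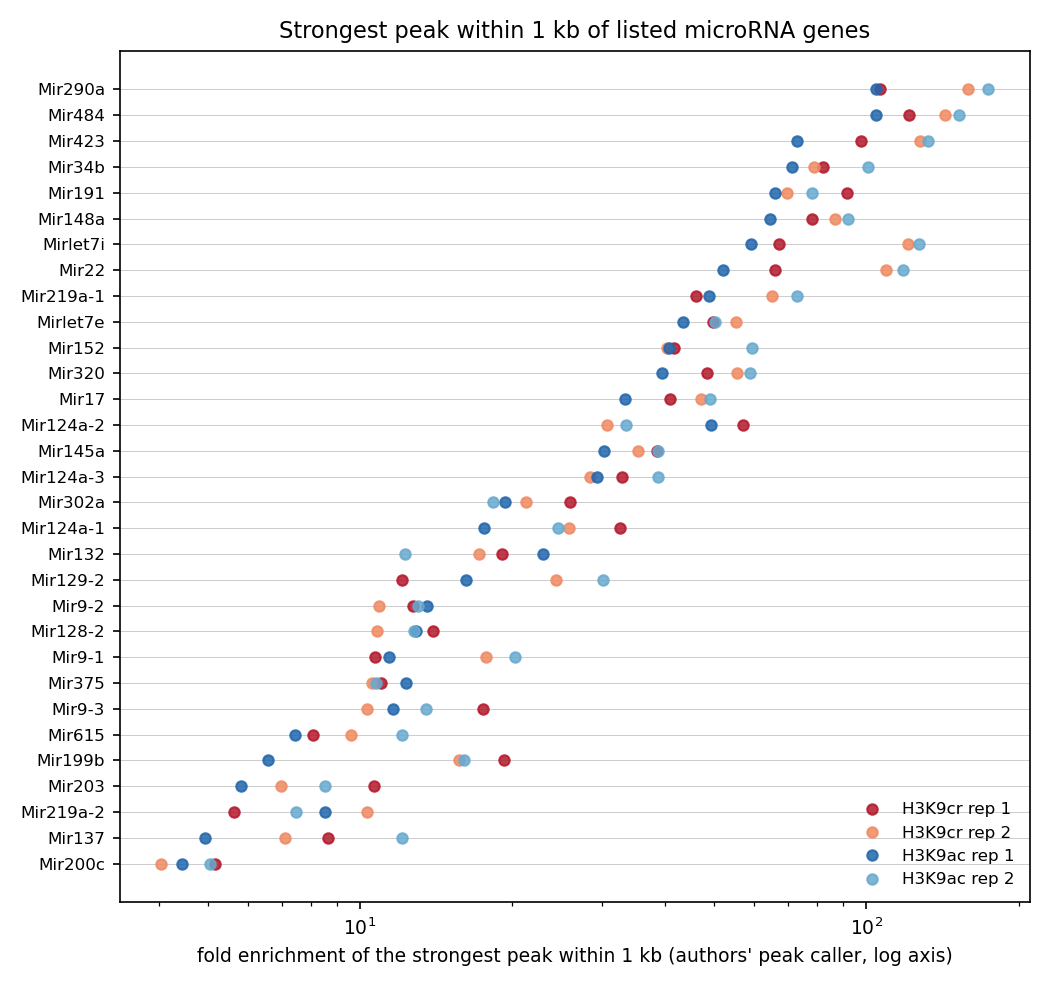
The fold enrichment of the strongest peak within 1 kb, on a log axis, is shown for listed microRNA genes with such a peak in all 4 libraries, 1 gene for each cluster, with 1 point for each library. Mir290a is highest, at 105 to 174, Mir200c lowest, at 4.05 to 5.18, and at both the values of the 2 marks overlap.

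Seeds that occur in several clusters mostly went with peaks at some of them or at none. The sequence table gave 1290 distinct seeds, of which 44 occurred in 3 or more clusters. For 3 of these seeds every cluster had a 1 kb peak in all 4 libraries, and for 24 none did. Here a cluster counted only by its genes with the seed. Over all clusters and single genes the share with such a peak at any member was 20.6%. At that share many seeds would have none, so the 24 are not read as a result about seeds. All 3 came from the miR-9 loci, as CUUUGGU and UAAAGCU are the seeds of the arms of miR-9 and UACAGCU belongs to Gm25641, Gm51268 and Gm51285, which overlap its genes. The seed GAGGUAG of let-7 had a 1 kb peak at 2 of 8 clusters and a 10 kb peak at 5 of 8. AUUGCAC, shared by miR-25, miR-32, miR-92, miR-92b and miR-367, had one at 2 of 5 and 4 of 5, and AAGUGCU had peaks at both its clusters, miR-290 and miR-302.

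Peaks of a single mark at microRNA genes were few and close to the distance limit. Peaks of H3K9cr alone, present in both H3K9cr libraries within 1 kb and in neither H3K9ac library, were found at 4 genes of 1136, beside 0.0912% of protein-coding starts, and of H3K9ac alone at 0, beside 0.0365%. The 4 genes were Mir338 and Mir3065 in Aatk, a kinase gene, Mir129-1 and Mir7070 in Fbxw9. All 4 had H3K9ac peaks just beyond 1 kb. The distances for Mir129-1 were 851 and 877 bp in H3K9cr and 1030 and 1041 bp in H3K9ac. Those for Mir338 were 924 and 963 bp against 1005 and 1034 bp, and those for Mir7070 992 and 973 bp against 1140 and 1039 bp. Within 10 kb only Mir7651 had H3K9cr alone. With a library left out the single-mark counts were 12 genes without H3K9cr replicate 1, 9 without H3K9cr replicate 2, 8 without H3K9ac replicate 1 and 11 without H3K9ac replicate 2, in place of 4, and a single list then stands for a mark.

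More genes had peaks in a mixed set of libraries. A peak in H3K9cr 1 and H3K9ac 2 but not in the other libraries was found at 8 genes, among them Mir23a, Mir27a and Mir24-2, a cluster with a weak peak of 4.22 and 5.54 fold. Mir21a, a microRNA often raised in tumours, was within 1 kb in H3K9cr 1 alone, at 796 bp against 1131 to 1182 bp elsewhere.

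No region near a microRNA gene was called different between the marks. Over 22972 regions with a peak in all 4 libraries, limma on the normal score of the rank of the summit pileup called 0 at a Benjamini-Hochberg adjusted p of 0.05, which is 0% of the regions, while 1746 (7.60%) had an unadjusted p under 0.05. Of the 731 regions within 10 kb of a microRNA gene 0 were called and 61 (8.34%) had an unadjusted p under 0.05. Of the 206 within 1 kb 0 were called and 13 (6.31%) did. In data simulated with independent noise, 100 regions were shifted by 2 normal-score units and 100 by 1 in the same run. The test found 77 and 58 of them, with 6 false calls. Many large shifts planted at once ease the adjusted cutoff, so these shares do not give the power for the real regions. The shifts were also larger than the differences at the main clusters given below.

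At the main clusters the difference, H3K9cr minus H3K9ac, was small on this scale. It was 0.00453 (SE 0.0741, adjusted p = 0.994) over Mir290a, 0.0940 (SE 0.0710, adjusted p = 0.788) over Mir302b and 0.00915 (SE 0.0793, adjusted p = 0.986) before Mir17, all by limma. The summit pileup over Mir302b was 77.9 and 84.0 in H3K9cr and 51.0 and 72.2 in H3K9ac, before ranking within each library.

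The lowest value near a microRNA gene was at a weak region 9034 bp from Mir196a-1 in the Hoxb cluster. Its summit pileup was 13.2 and 14.1 in H3K9cr and 16 and 23.4 in H3K9ac, lower in both H3K9cr libraries. The difference, H3K9cr minus H3K9ac, was −1.21 normal-score units (SE 0.0676, adjusted p = 0.466 by limma). At the miR-182 to miR-183 locus a region 1017 bp from Mir182 stood at −0.60 (adjusted p = 0.466 by limma). In the other direction, the highest value within 10 kb of a microRNA gene was 0.756. Of the 61 regions there with an unadjusted limma p under 0.05, 32 were higher in H3K9cr.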

How the data were processed

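H3K9cr and H3K9ac were each profiled by native ChIP-seq in 2 libraries of P19 cells. Per the submitters' processing notes, the tools were Bowtie2 2.4.1 and MACS2 2.2.7.1 on GRCm38. Per the file headers, the authors deposited for each library a peak list with the summit pileup (a coverage signal), a fold enrichment ratio and −log10 p and q values. Lists were made per library and used as deposited, so counts are bounded by the authors' threshold. Intervals cover counting error only. They treat genes as independent, although genes of a cluster share peaks, so they can be too narrow.

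Members are the RefSeq miRNA genes on autosomes. A peak counted when the gap to its edge was at most 1 kb or 10 kb. Host starts came from the RefSeq start table, with any start of a host counted for peaks and the nearest start taken for distances. Marks were compared by exact permutation over libraries and by limma 3.58.1 (R 4.3.3) on normal scores of ranks over all shared regions. The other steps used Python 3.11.15, pandas 2.3.3, numpy 2.4.6 and scipy 1.17.1. Geometry and the limma step were tested on simulated data.

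Named genes are the listed microRNA genes, clusters of 5 or more genes, single-mark genes, and the 10 clusters inside and the 10 outside spans with the highest lowest fold. An item of this set is not reported here. Genes outside this rule (Mir211, Mir7651, Mir32, the Gm records and host genes) were named after their values were seen. The members and lists were chosen with earlier results of these data known. Same-numbered libraries share only a number in the labels.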

Additional observations from a re-analysis of the deposited data

How the results depend on the processing

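The mean inside minus outside differences kept their sign under every alternative run, below 0 at 1 kb and above 0 at 10 kb. Counts have no sign and are given as values. Clusters and single genes with a 1 kb peak in all libraries numbered 184, and 129 by summit. Those with a 10 kb peak numbered 433, with 417 by summit and 400 when gaps under 50 kb were joined. Genes with a 10 kb peak in all libraries numbered 515, and 498 by summit. The mean inside minus outside difference at 10 kb was 0.878 percentage points, and 0.496 by summit. By summit the difference was not above 0 in every library (exact sign-flip permutation p = 0.5). The mean was 1.81 with long noncoding spans added, 5.48 over clusters and 5.74 without the Sfmbt2 cluster. It was 3.63 without the Dlk1 to Dio3 clusters too and 0.509 to 1.16 with a library left out. The shares with a 10 kb peak in all 4 libraries went the other way, at 45.1% inside and 45.8% outside. The difference between marks in genes per library, 10 at 1 kb and 8.5 at 10 kb, changed sign with distance taken to the summit (−0.5 at 1 kb) and with equally long lists of the strongest peaks (−0.5 at 10 kb), and was 1.5 to 18.5 at 1 kb and 6.5 to 10.5 at 10 kb with a library left out. By summit, 149 genes in place of 224 had a 1 kb peak in all libraries, and H3K9cr alone was found at 2 genes and H3K9ac alone at 3. With each library left out in turn, genes with a single mark numbered 8 to 12, H3K9cr alone 5 to 10 and H3K9ac alone 0 to 3. Fewer lists then have to hold or lack a peak. Between marks, the fit with the replicate number as a block (replicate block) called 0 regions, with a smallest adjusted p of 0.546 in limma. The other fits called 0 too, with smallest adjusted p-values of 0.176 or more. Same-numbered libraries deviated together for fold (0.616) but not for pileup (0.0120). With 2 libraries per mark the 2 pairs must give the same value, so they count as a single observation. Unknown read depth limits every statement on a missing peak.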

Other observations

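The X chromosome, which the set leaves out, holds 92 further microRNA genes in 48 clusters and single genes. Of these, 12 (13.0%) had a peak within 1 kb and 26 (28.3%) within 10 kb in all 4 libraries, and 66 had no peak within 10 kb in any. The difference from the autosomes was not tested.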
